A study of Mus musculus with 8 samples.

Results

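Renin-angiotensin system genes were read from the RNA sequencing of mouse kidney as the entries of the gene count table that carried 1 of 9 symbols: *Agt*, *Ren1*, *Ace*, *Agtr1a*, *Agtr1b*, *Atp6ap2*, *Enpep*, *Mme* and *Mas1*. All 9 were among the 55367 genes counted, and 8 had enough reads to enter the test, in which 20149 genes took part. *Agtr1b* was the exception, with 5 counts in all. The kidneys came from 4 c-MafΔTAM mice and 4 c-Maf fl/fl mice, the controls, of the C57BL/6J strain, labelled as whole kidney at 8 weeks of age. The c-MafΔTAM mice carried the floxed *Maf* alleles together with a tamoxifen-activated Cre (CAG-Cre-ERTM) under the CAG promoter, which is active in most tissues, so the deletion was not limited to the kidney. The controls carried the floxed alleles without Cre, and per the methods both genotypes received tamoxifen. An action of Cre itself and the loss of c-Maf, a leucine zipper transcription factor, therefore cannot be told apart here.

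The renin-angiotensin system is a chain of peptide cuts that sets blood pressure and salt balance. Renin, released by juxtaglomerular cells at the glomerular arteriole, cuts angiotensinogen to angiotensin I, and angiotensin-converting enzyme trims that to angiotensin II, which acts on its receptors in vessels, tubules and the adrenal gland. Membrane peptidases of the tubular brush border and of the glomerulus break the active peptide down or turn it into peptides with other receptors, and the kidney holds all of these parts itself.

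The libraries held 16649129 to 22990257 counted reads, of which 17.1% to 32.3% fell on mitochondrial genes. *Maf* was at 9.04 to 34.4 CPM (reads of a gene scaled to a common library size, with trimmed mean of M values, TMM, factors) in the 4 c-MafΔTAM mice and at 305 to 379 CPM in the controls. The mice also fell into 2 classes that crossed the genotypes. *Xist*, the RNA of the inactive X chromosome, had 17618 to 22387 counts in 5 mice (c-MafΔTAM mice 2, 3 and 4, c-Maf fl/fl mice 1 and 2) and 2 to 22 counts in the other 3 (c-MafΔTAM mouse 1, c-Maf fl/fl mice 3 and 4), and 4 Y-linked genes together had 3 to 12 counts in the first class and 2293 to 2886 in the second. The labels do not state the sexes. Because c-MafΔTAM mouse 1, the only low-Xist mouse of its genotype, also had the highest mitochondrial share, class and library quality cannot be told apart in that genotype. Among the controls, low-Xist mouse 4 had the highest mitochondrial share (25.5%), and the TMM factors of the 3 low-Xist libraries (0.857 to 0.969) lay below those of the other 5 (1.03 to 1.11). The part of both in the class differences was not tested. The tissue label was kidney while the extraction text named liver. *Lrp2* (4456 to 8584 CPM) and *Umod* (1644 to 3189 CPM), markers of the proximal tubule and the thick ascending limb, were high in all 8 mice, whereas the hepatocyte genes *Ahsg* and *Serpina3k* had no count in any and 5 of 10 hepatocyte genes stayed under 1 CPM. The 10 summed to 28.1 to 55.5 CPM, led by *Fga* (17.8 to 49.1 CPM).

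Between the genotypes, the kidneys of c-MafΔTAM mice held 1.34-fold more *Ace* RNA and 1.43-fold less *Enpep* RNA than those of c-Maf fl/fl mice, and these 2 of the 8 tested members passed an adjusted p of 0.05 in edgeR's quasi-likelihood test with Benjamini-Hochberg adjustment. *Agt* was 1.37-fold higher without passing the threshold in all 8 mice, and passed it once the *Xist* class of the mice was taken into account. *Ren1* and *Mme* passed the threshold between the *Xist* classes and not between the genotypes. Among all genes tested, 2.16% passed the threshold, 0.586% as higher in c-MafΔTAM mice and 1.58% as lower. The median log2 fold change of the 8 members was 0.29, beside 0.0027 over all genes. It fell between *Ren1* (0.22) and *Mme* (0.36), the genes that differed between the *Xist* classes. With the class as a second term these 2 were at -0.06 and 0.19, so the median depends on the unequal classes of the genotypes. All mice of one genotype lay beyond all mice of the other in 3 members (*Agt* and *Ace* above, *Enpep* below), a separation found in 9.79% of all genes tested. In whole tissue, fewer cells of a type and less RNA per cell cannot be told apart, here and in every value that follows.

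**Figure D1:**
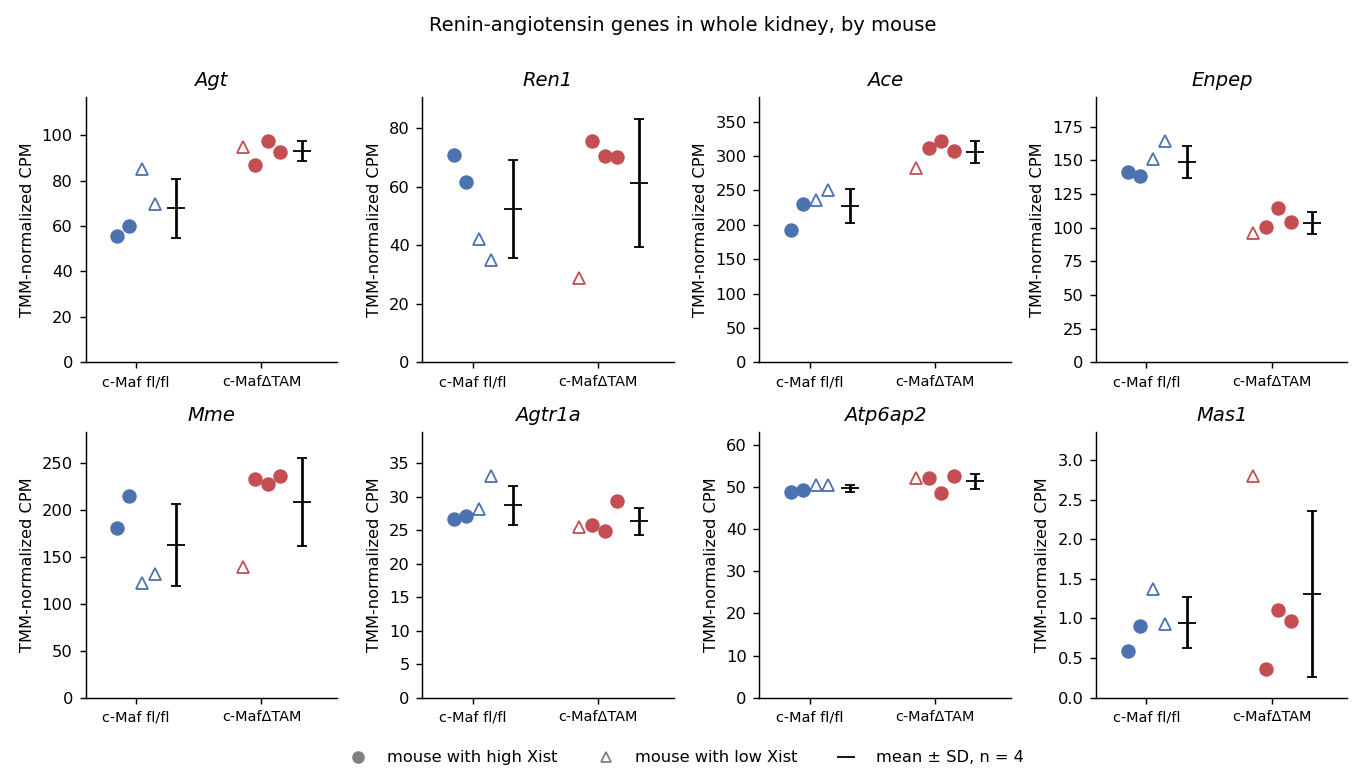
TMM-normalised CPM of 8 renin-angiotensin genes in each mouse by genotype, with filled circles for mice with high Xist, open triangles for mice with low Xist, and bars for the mean and SD of 4 mice. Agt and Ace lay higher and Enpep lower in all c-MafΔTAM mice than in any control, whereas the triangles of Ren1 (28.9 to 42.3 CPM) and Mme (123 to 139 CPM) lay below the circles in both genotypes.

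*Agt* (chr8:124556534-124569706, minus strand, GRCm38) encodes angiotensinogen, the substrate of renin, which in the kidney is made mainly by the proximal tubule. Its level was 94.9, 87.1, 97.4 and 92.5 CPM in c-MafΔTAM mice 1 to 4 and 55.7, 60.1, 85.3 and 69.8 CPM in controls 1 to 4. The genotypes did not overlap, and the controls were spread more widely (67.7 ± 13.1 CPM, SD, n = 4) than the c-MafΔTAM mice (93.0 ± 4.43 CPM). The log2 fold change was 0.46 (SE 0.121, adjusted p = 0.0848), short of the threshold. With the *Xist* class as a second term it was 0.54 (SE 0.0924, adjusted p = 0.00142), and within the 5 mice with high *Xist* it was 0.67 (SE 0.0874, adjusted p = 0.000263). The control nearest to the c-MafΔTAM mice, c-Maf fl/fl mouse 3, was also the mouse whose 6 adipocyte genes summed to 197 CPM, against 25.0 to 46.8 CPM in the other 7 mice. Adipocytes also make angiotensinogen, and their part in this value was not tested. Without that mouse, which also had low *Xist*, the log2 fold change of *Agt* was 0.59 (adjusted p = 0.0175). Of 8 fits that left out 1 mouse it was the only 1 in which *Agt* passed. The others gave 0.37 to 0.49, with adjusted p of 0.130 to 0.243.

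*Ren1* (chr1:133350510-133360325, plus strand) encodes renin, whose release starts the cascade. Its level was 28.9, 75.6, 70.7 and 70.2 CPM in c-MafΔTAM mice and 70.9, 61.5, 42.3 and 35.1 CPM in the controls. The genotypes overlapped over most of their range, since the 3 lowest mice were c-MafΔTAM mouse 1 and c-Maf fl/fl mice 3 and 4. The log2 fold change between genotypes was 0.22 (SE 0.353, adjusted p = 0.837), and its 95% interval of -0.61 to 1.05 was wide. With the *Xist* class as a second term it became -0.06 (SE 0.109, adjusted p = 0.821), and within the mice with high *Xist* it was 0.12 (SE 0.0898, adjusted p = 0.588).

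*Atp6ap2* (chrX:12587801-12617049, plus strand) encodes the (pro)renin receptor, an accessory subunit of the vacuolar proton pump that also binds renin and its precursor. It varied little between mice, at 52.2, 52.1, 48.6 and 52.5 CPM in c-MafΔTAM mice and 48.8, 49.2, 50.5 and 50.4 CPM in the controls. The genotypes overlapped through c-MafΔTAM mouse 3 alone. The log2 fold change was 0.05 (SE 0.0705, adjusted p = 0.824), with a 95% interval of -0.11 to 0.20. Of the 36-base stretches of its transcripts, 5.85% also occur in the gene model *Gm36448*, so reads from these places could not be assigned to 1 gene by sequence.

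*Ace* (chr11:105967945-105989964, plus strand) encodes angiotensin-converting enzyme, which forms angiotensin II on vessel walls and on the brush border of the proximal tubule. Its level was 283, 311, 322 and 307 CPM in c-MafΔTAM mice and 193, 230.5, 235 and 250.2 CPM in the controls. The lowest c-MafΔTAM mouse lay above the highest control, with means of 306 ± 16.4 and 227 ± 24.2 CPM (SD, n = 4 per genotype). The fitted log2 fold change was 0.43 (SE 0.0966, adjusted p = 0.0436), 0.44 (SE 0.0855, adjusted p = 0.00358) with the *Xist* class as a second term, and 0.56 (SE 0.0913, adjusted p = 0.00174) within the mice with high *Xist*. Without a class term the call depended on single mice, since the adjusted p rose to 0.133, 0.154 and 0.0886 without c-MafΔTAM mouse 2, 3 or 4 and to 0.0910, 0.104 and 0.0998 without c-Maf fl/fl mouse 1, 2 or 3, while the log2 fold change stayed between 0.36 and 0.48. Of the exonic bases of *Ace*, 5.58% overlap the gene model *Gm11651*, and reads there were counted for neither gene.

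Neither receptor that could be tested passed the threshold. *Agtr1a* (chr13:30336441-30382867, plus strand) encodes the main angiotensin II receptor of the mouse kidney, which raises vascular tone and sodium uptake. It was at 25.5, 25.8, 24.8 and 29.3 CPM in c-MafΔTAM mice and at 26.6, 27.1, 28.2 and 33.1 CPM in the controls. The groups overlapped, and the log2 fold change of -0.12 (SE 0.1002, adjusted p = 0.647) had a 95% interval of -0.34 to 0.10. *Agtr1b* (chr3:20314473-20367177, minus strand), its paralogue, had 2 counts in c-MafΔTAM mouse 2, 3 counts in c-MafΔTAM mouse 3 and 0 in the other 6 mice, where a count of 0 allows up to 3 counts, or 0.135 to 0.176 CPM, as counting error only. Of the 36-base stretches of its transcripts, 3.42% are shared with *Agtr1a*, and 5 counts are too few to describe a level. *Mas1* (chr17:12841079-12868143, minus strand) encodes the Mas receptor, which binds the heptapeptide cut from angiotensin peptides and opposes angiotensin II. It was near the limit of detection, at 2.79, 0.359, 1.11 and 0.972 CPM in c-MafΔTAM mice and 0.587, 0.901, 1.37 and 0.936 CPM in the controls. These values rest on 7 to 55 counts per library. The highest mouse was c-MafΔTAM mouse 1, and the log2 fold change was 0.47 (SE 0.518, adjusted p = 0.755) with that mouse and -0.22 (adjusted p = 0.880) without it.

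*Enpep* (chr3:129269175-129332720, minus strand) encodes aminopeptidase A, a brush border and glomerular enzyme that removes the first residue of angiotensin II to give angiotensin III. Its level was 95.8, 100.3, 115 and 104 CPM in c-MafΔTAM mice and 141, 138, 151 and 164 CPM in the controls. All 4 c-MafΔTAM mice lay below all controls, with means of 104 ± 8.04 and 149 ± 11.8 CPM (SD, n = 4 per genotype). The fitted log2 fold change was -0.52 (SE 0.0894, adjusted p = 0.00988). It passed the threshold in each of the 3 fits, at -0.51 (SE 0.0816, adjusted p = 0.000718) with the *Xist* class as a second term and -0.40 (SE 0.0840, adjusted p = 0.0132) within the mice with high *Xist*, and in 8 of 8 fits that left out 1 mouse (-0.57 to -0.47). No 36-base stretch of its transcripts occurs in another gene model.

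*Mme* (chr3:63241537-63386030, plus strand) encodes neprilysin, a brush border endopeptidase that cuts angiotensin I to the Mas-binding heptapeptide and also degrades natriuretic peptides. It was at 139, 233, 228 and 236 CPM in c-MafΔTAM mice and at 181, 216, 123 and 132 CPM in the controls. As for *Ren1*, the 3 lowest mice were c-MafΔTAM mouse 1 and c-Maf fl/fl mice 3 and 4. The log2 fold change between genotypes was 0.36 (SE 0.221, adjusted p = 0.525), 0.19 (SE 0.0747, adjusted p = 0.141) with the *Xist* class as a second term and 0.23 (SE 0.0897, adjusted p = 0.228) within the mice with high *Xist*.

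**Figure D2:**
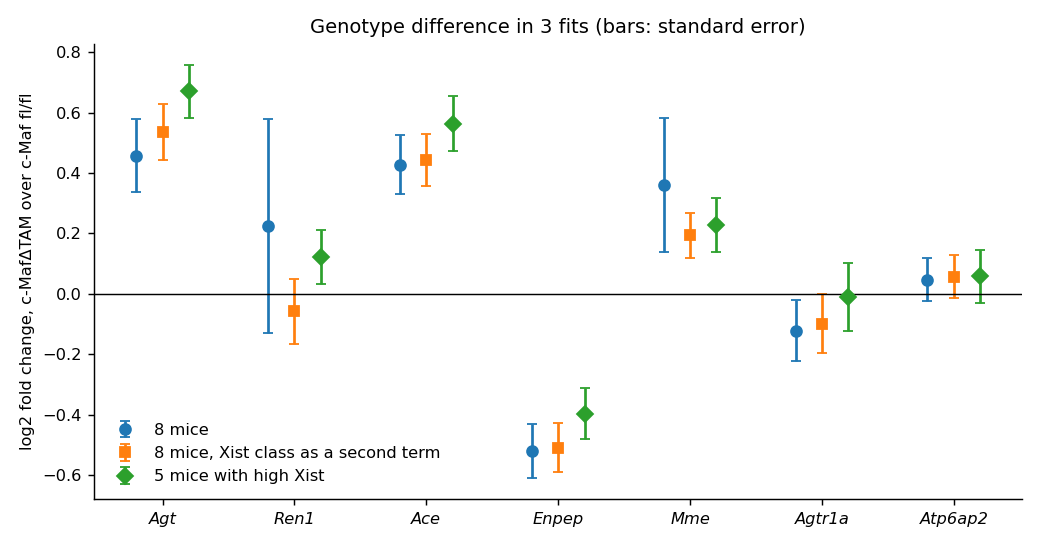
Log2 fold change of c-MafΔTAM over c-Maf fl/fl mice for 7 members in edgeR fits of all 8 mice, of all 8 mice with the Xist class as a second term, and of the 5 mice with high Xist, with bars of 1 standard error. Agt and Ace lay above 0 and Enpep below 0 by more than 3 standard errors in each fit, whereas Ren1 moved from 0.22 to -0.06 when the class was added.

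Within the mice with high *Xist*, 3 of the 8 tested members passed the threshold (*Agt*, *Ace* and *Enpep*), where 3.75% of 21027 genes did. With the class as a second term the same 3 passed, beside 7.47% of all genes. Whether the genotype difference itself depended on the class was tested as an interaction, which 0.194% of genes passed. None of the 8 members did by edgeR's quasi-likelihood test, and 4 were under an unadjusted p of 0.05, as were 8.57% of all genes. *Ren1* was nearest: on the log2 scale its genotype difference in low-Xist minus that in high-Xist mice was -0.55 (SE 0.174, unadjusted p = 0.00680, adjusted p = 0.335), and *Agt* (-0.38), *Ace* (-0.34) and *Enpep* (-0.32) followed. The low-Xist side of that test rested on a single c-MafΔTAM mouse.

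Set per kilobase of exon so that genes can be compared, the levels in the controls ran from *Ace* (43.0 ± 4.58 CPM per kb) through *Agt* (35.8 ± 6.92), *Ren1* (31.7 ± 10.04) and *Enpep* (31.6 ± 2.50) to *Atp6ap2* (19.0 ± 0.327), *Mme* (14.1 ± 3.77), *Agtr1a* (10.3 ± 1.06) and *Mas1* (0.362 ± 0.122; SD, n = 4 for each). Among the first 4 genes each overlapped in range with the next, as did *Atp6ap2* with *Mme* and *Mme* with *Agtr1a*, so over the 4 controls of both *Xist* classes these neighbours overlapped. The place of *Ren1* turned with the class: it was at 42.8 and 37.1 CPM per kb in the controls with high *Xist*, above *Agt* (29.5 and 31.8) and *Enpep* (30.04 and 29.4), and at 25.5 and 21.2 in those with low *Xist*, below *Agt* (45.1 and 36.9) and *Enpep* (32.1 and 34.95). *Atp6ap2* was above *Mme* in each of the 4 controls. *Ace* (36.5 to 47.3 CPM per kb) still lay wholly above *Enpep* (29.4 to 34.95), and *Atp6ap2* (18.6 to 19.3) above *Agtr1a* (9.56 to 11.9). *Enpep* lay apart from *Atp6ap2*, and *Agtr1a* lay apart from *Mas1*. In c-MafΔTAM mice the order of the means was the same, but *Ace* (57.8 ± 3.10) and *Agt* (49.2 ± 2.34) lay apart from each other and from *Ren1* (37.0 ± 13.1), and *Enpep* (22.0 ± 1.71) came close to *Atp6ap2* (19.6 ± 0.695). By mouse it was not: *Mme* lay above *Atp6ap2* in mice 2 (20.2 against 19.9), 3 (19.7 against 18.6) and 4 (20.5 against 20.1). In mouse 1 *Mme* (12.1) lay below *Atp6ap2* (19.9), and *Ren1* (17.4) lay below both *Enpep* (20.4) and *Atp6ap2*. RNA for the converting enzyme and the substrate stood above that for the receptor in every mouse of both genotypes.

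**Figure D3:**
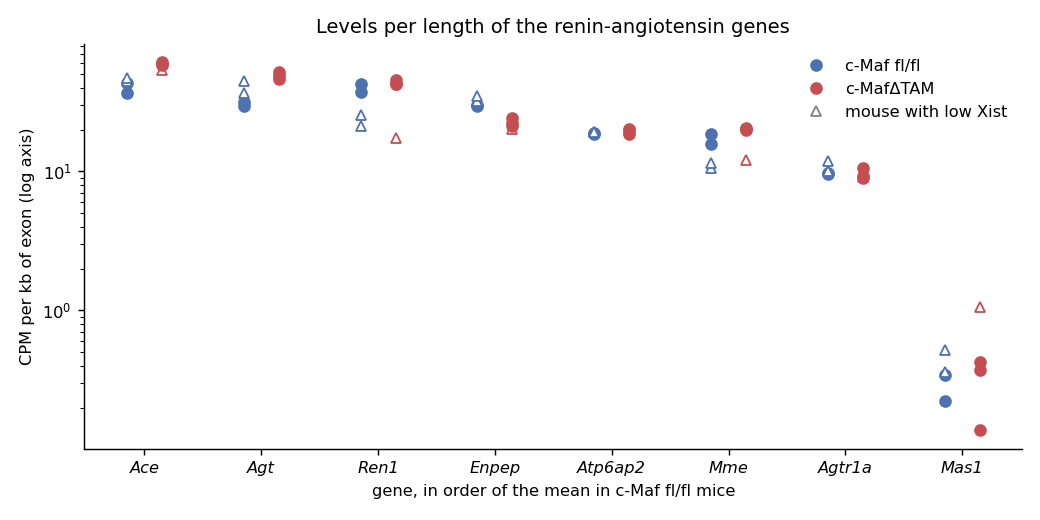
CPM per kilobase of exon on a log axis for 8 members in each mouse, ordered by the mean of the c-Maf fl/fl mice, with triangles for mice with low Xist. The first 7 genes lay between 8.92 and 60.9 CPM per kb and Mas1 between 0.137 and 1.07.

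Ratios of counts within a mouse do not depend on normalisation, and 2 were compared by a 2-sided exact permutation test over 70 assignments, with a smallest possible p of 0.0286 and adjustment over the 2. The log2 ratio of *Enpep* to *Mme*, both peptidases of the brush border, was -0.98 ± 0.31 in c-MafΔTAM and -0.09 ± 0.48 in control mice, a difference of -0.89 (exact p = 0.0571, adjusted p = 0.114). The ratio of *Ren1* to *Agt*, enzyme to substrate, was -0.70 ± 0.69 and -0.41 ± 0.70, a difference of -0.29 (exact permutation p = 0.6). Neither passed over the 8 mice, whose *Xist* classes were pooled in this test. Within the mice with high *Xist* the difference was -0.63 for *Enpep* to *Mme* and -0.55 for *Ren1* to *Agt*, without a test. *Ren1* to *Agt* was at -0.46 to -0.20 in the 3 c-MafΔTAM mice with high *Xist* and at 0.03 and 0.35 in the controls of that class, and at -1.72 in the c-MafΔTAM mouse with low *Xist* and -1.01 and -0.99 in its controls. *Enpep* to *Mme* was at -1.22 to -0.99 against -0.64 and -0.36 with high *Xist*, and at -0.54 against 0.30 and 0.32 with low *Xist*. Both ratios were thus lower in every c-MafΔTAM mouse than in the controls of its own class. The ratio of *Agtr1b* to *Agtr1a* could not be formed because *Agtr1b* had no count in 6 mice.

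Between the *Xist* classes, renin and neprilysin RNA were lower in the mice with low *Xist*. *Ren1* was at 61.5 to 75.6 CPM in the 5 mice with high *Xist* and at 28.9 to 42.3 CPM in the 3 with low *Xist*, without overlap. In the fit of both terms the log2 difference, low minus high, was -0.998 (SE 0.116, adjusted p = 4.67e-05), or 2.00-fold more renin RNA in high-Xist mice. *Mme* was at 181 to 236 CPM with high and 123 to 139 CPM with low *Xist*, with a log2 difference of -0.68 (SE 0.0787, adjusted p = 2.04e-05), or 1.61-fold more with high *Xist*. These 2 of 8 members passed the threshold for the class, both as lower with low *Xist*, where 12.2% of all genes passed, 5.63% as lower and 6.59% as higher with low *Xist*. Both passed in 8 of 8 fits that left out 1 mouse, at -1.12 to -0.77 for *Ren1* and -0.75 to -0.63 for *Mme*.

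Within the 4 c-Maf fl/fl mice alone, 2 of each class, *Ren1* differed between the classes by -0.77 (SE 0.118, adjusted p = 0.00144) and *Mme* by -0.64 (SE 0.0997, adjusted p = 0.00174). *Agt* was higher with low *Xist* there, by 0.42 (SE 0.109, adjusted p = 0.0342), so that 3 of 8 members passed in a comparison that 7.49% of genes passed. Over all 8 mice the class difference of *Agt* was 0.26 (SE 0.0947, adjusted p = 0.0890). It was 0.15 (adjusted p = 0.319) without c-Maf fl/fl mouse 3, the low-Xist control whose adipocyte genes summed to 197 CPM. Without c-MafΔTAM mouse 1 it was 0.42 (adjusted p = 0.0258). *Mas1*, on its few counts, had a fitted class difference of 1.196, higher with low *Xist* (SE 0.389, adjusted p = 0.0551). With each mouse left out it ran from 0.63 to 1.47, and it was 0.63 (adjusted p = 0.598) without c-MafΔTAM mouse 1. *Ace*, *Enpep*, *Agtr1a* and *Atp6ap2* differed between the classes by 0.04 to 0.08 on the log2 scale, none past the threshold.

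**Figure D4:**
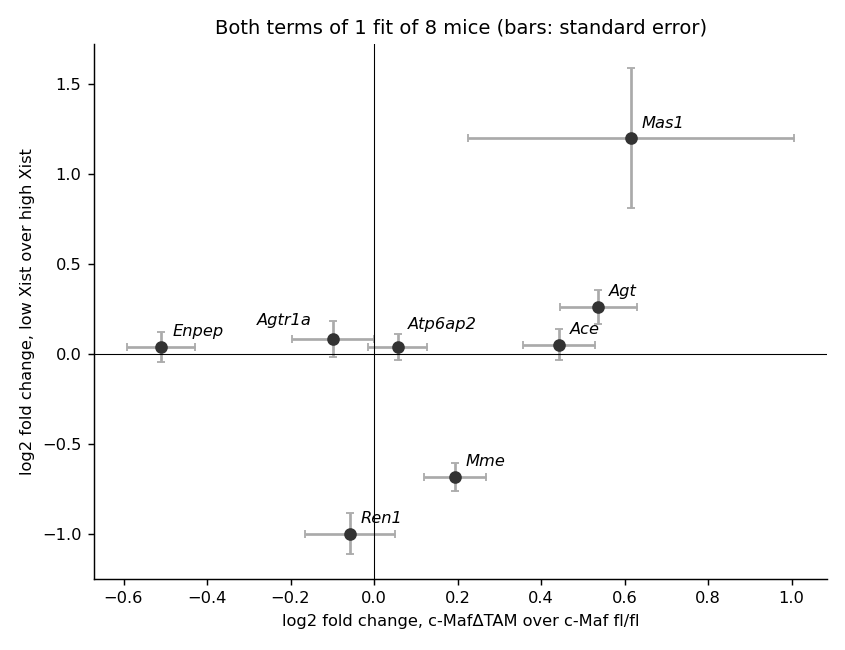
Both terms of 1 edgeR fit of 8 mice: the genotype difference on the horizontal axis and the Xist class difference on the vertical axis, each as a log2 fold change with bars of 1 standard error. Enpep, Agt and Ace lay away from 0 along the genotype axis, and Ren1 (-0.998) and Mme (-0.68) along the class axis.

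Cell markers were read beside these values. None of the 4 other markers of renin cells passed the threshold for genotype or class. Their sums were 54.3 to 77.4 CPM in high-Xist and 46.3 to 64.8 CPM in low-Xist mice. *Rgs5* (37.5 to 63.0 CPM), also counted among the smooth muscle and pericyte markers, made up most of these sums. All 4 were on the lower side with low *Xist*: *Aldh1a1* (-0.75, adjusted p = 0.0600), *Akr1b7* (-0.74, adjusted p = 0.237), *Rgs5* (-0.25) and *Gja5* (-0.15). *Akr1b7*, an enzyme of juxtaglomerular cells, was at 0.585 to 1.53 CPM. The summed level of 8 smooth muscle and pericyte markers overlapped between the classes (276 to 349 against 255 to 309 CPM), but 1 of them, the pericyte marker *Cspg4*, was lower with low *Xist*, at 67.7 to 77.4 CPM with high and 47.6 to 56.9 CPM with low *Xist* (log2 difference -0.46, adjusted p = 0.00154). Podocyte markers moved with the class, as *Ren1* and *Mme* did: 5 of 6 were lower with low *Xist* (sums of 358 to 392 against 463 to 505 CPM), and none passed for genotype. *Mme* is also made by podocytes. Of 7 markers of kidney segments, 5 passed for the class too. Lower with low *Xist* were *Umod* (-0.49, adjusted p = 0.0131) and *Slc12a1* (-0.37, adjusted p = 0.00784) of the thick ascending limb, *Lrp2* of the proximal tubule (-0.39, adjusted p = 0.0424) and *Slc12a3* of the distal tubule, while the proximal gene *Kap* was higher (1.90). Over all genes 12.2% passed for the class. Of 5 genes of the straight proximal tubule, 3 were higher with low *Xist*, among them *Slc7a13*, which was at 204 to 324 CPM there and at 0.410 to 1.08 CPM with high *Xist*. The other 2, *Slc5a1* (-0.21, adjusted p = 0.129) and *Slc22a7* (-0.61, adjusted p = 0.308), were on the lower side without passing. With the genotype, by which *Ace* and *Enpep* differed, 1 of the 7 segment markers passed, the proximal tubule phosphate transporter *Slc34a1*, at 1478 to 1968 CPM in c-MafΔTAM mice and 3494 to 4523 CPM in the controls (log2 fold change -1.23, SE 0.123, adjusted p = 0.000217), where 2.16% of all genes passed. With the class as a second term, in which *Agt* passed too, 2 of 7 segment markers and 2 of 5 straight tubule genes passed for genotype, beside 7.47% of all genes. *Slc34a1* (-1.18) and *Slc7a13* (-0.57) were lower and *Kap* (0.72) and *Atp11a* (0.58) higher in c-MafΔTAM mice. Within the mice with high *Xist*, *Slc34a1* (-1.09, adjusted p = 4.50e-05) and *Atp11a* (0.40, adjusted p = 0.0491) passed, where 3.75% of all genes did. *Kap* (0.73, adjusted p = 0.0592) and *Slc7a13* (-0.74, adjusted p = 0.524) did not pass there. In the fit without the class 1 of 7 endothelial markers was lower in c-MafΔTAM mice, beside 1.58% of all genes. It was *Kdr*, with a log2 fold change of -0.37 (adjusted p = 0.0450). Of the 7, 1 passed with the class as a second term, beside 7.47% of all genes. Within the mice with high *Xist* 0 passed, beside 3.75%. Adrenal markers were near 0 apart from *Star* (5.64 to 9.23 CPM). The part of these cells in the differences of the members was not tested.

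Among other genes of the pathway, *Prcp* was lower in c-MafΔTAM mice. Of 18 further receptors, angiotensin peptidases and receptor-binding proteins, 13 were tested and 1 passed the threshold, as lower, where 1.58% of all genes did; their median log2 fold change was -0.04. *Prcp* encodes prolylcarboxypeptidase, which removes the last residue of angiotensin II and III. It was at 28.4, 22.2, 22.7 and 23.2 CPM in c-MafΔTAM mice and 38.6, 40.1, 36.1 and 35.4 CPM in the controls, without overlap, with a log2 fold change of -0.64 (adjusted p = 0.00600). It was -0.63 (adjusted p = 0.000464) with the class as a second term and -0.79 (adjusted p = 0.000196) within the mice with high *Xist*. *Agtrap*, whose protein binds the angiotensin II receptor and draws it into the cell, was also lower in all 4 c-MafΔTAM mice, by a log2 fold change of -0.40 (SE 0.112, adjusted p = 0.102). With the class as a second term it passed the threshold at -0.32 (adjusted p = 0.0142), as did *Mep1b*, a meprin subunit of the brush border, at 0.37 (adjusted p = 0.0299), in a fit where 7.47% of all genes passed. Within the mice with high *Xist* neither passed, *Agtrap* at -0.24 (adjusted p = 0.171) and *Mep1b* at 0.28 (adjusted p = 0.301).

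*Anpep*, aminopeptidase N, which trims angiotensin III, gave -0.16 (adjusted p = 0.767), and *Lnpep*, the receptor for angiotensin IV, gave 0.10 (adjusted p = 0.659). *Agtr2*, the second angiotensin II receptor, stayed at or under 0.294 CPM and was not tested. Between the *Xist* classes 6 of these 13 genes passed, where 12.2% of all genes did, 6.59% as higher and 5.63% as lower with low *Xist*. The 5 higher ones were *Mep1b* (0.81), *Mep1a* (0.74), *Anpep* (0.55), *Agtrap* (0.30) and *Ctsa* (0.30 on the log2 scale), and the 1 lower one was *Klk1* (-0.34).

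**Figure D5:**
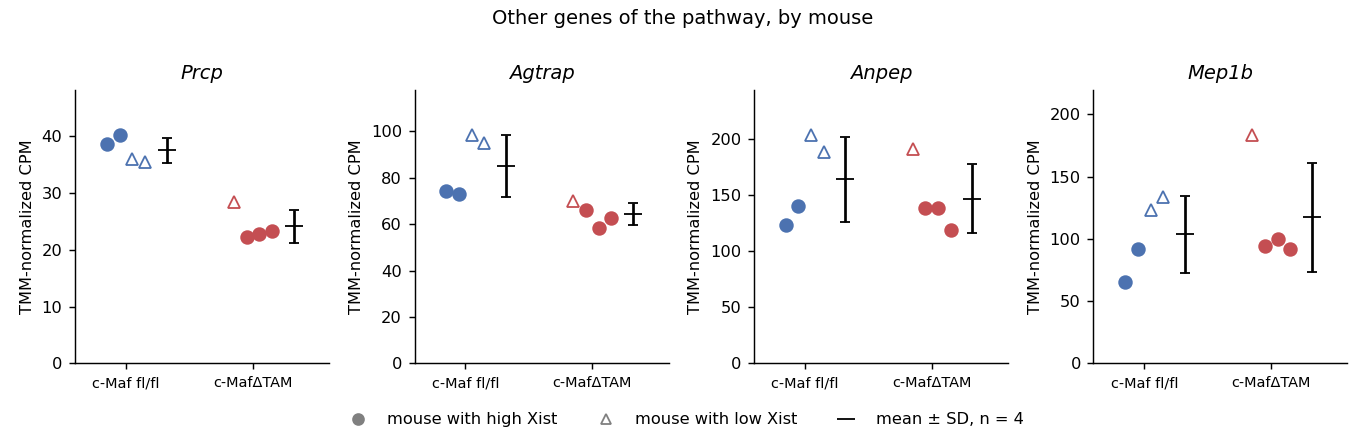
TMM-normalised CPM of Prcp, Agtrap, Anpep and Mep1b in each mouse by genotype, with filled circles for high Xist, open triangles for low Xist and bars for the mean and SD of 4 mice. Prcp and Agtrap were lower in all c-MafΔTAM mice, while Anpep and Mep1b were higher in the mice with low Xist of both genotypes.

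Genes that act on renin release showed no genotype difference past the threshold. Of 13 such genes, 12 were tested and 0 passed by edgeR's quasi-likelihood test, 1 at an unadjusted p under 0.05, and DESeq2 also called 0; their median log2 fold change was 0.02. The 1 gene was *Ptgs2*, the inducible cyclooxygenase of the macula densa, at 0.711 to 1.40 CPM in c-MafΔTAM and 0.270 to 0.881 CPM in the controls, with a log2 fold change of 1.02 (SE 0.424, adjusted p = 0.304). *Gja5*, the connexin of renin cells, gave 0.12 (adjusted p = 0.815), and *Nos1*, the nitric oxide synthase of the macula densa, gave 0.43 (adjusted p = 0.663). With low *Xist*, where *Ren1* was lower, 3 of the 12 passed, all as lower, beside 5.63% of all genes: *Nos1* (-1.17, adjusted p = 0.00471), the prostaglandin synthase *Ptges* (-0.57, adjusted p = 0.0163) and the adenylyl cyclase *Adcy6* (-0.45, adjusted p = 0.00126).

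Downstream, none of 8 genes of the mineralocorticoid axis passed for genotype, or at an unadjusted p under 0.05, with a median log2 fold change of 0.01. DESeq2 called 0 of them. *Nr3c2*, the mineralocorticoid receptor, gave 0.04 (SE 0.145, adjusted p = 0.944). For the class, 6 of 8 passed, all lower with low *Xist* as *Ren1* and the thick limb genes *Umod* and *Slc12a1* were, where 5.63% of all genes passed as lower: *Sgk1*, the aldosterone-induced kinase (-1.51, adjusted p = 0.0283), *Hsd11b2*, which protects the receptor from glucocorticoids (-0.75, adjusted p = 4.60e-06), *Slc12a3*, the thiazide-sensitive cotransporter (-0.57), the sodium channel subunits *Scnn1b* (-0.46) and *Scnn1g* (-0.40), and *Nr3c2* (-0.42).

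By Pearson correlation of log2 CPM over the 8 mice, across 17475 genes with a mean of at least 1 CPM, the genes most like *Ren1* were *Anxa6* (r = 0.992), *P3h2* (0.990), *Tcaf2* (0.990), *Plxnb1* (0.990) and *Id4* (0.987). Those most like *Agt* were *Tubgcp5* (0.986), *Pde4c* (0.9797), *Hikeshi* (0.978), *Tmc5* (0.968) and *Ppip5k1* (0.965). With the genotype means subtracted, r was 0.990 to 0.994 for the first set and 0.896 to 0.960 for the second. These are descriptions over 8 libraries that share 2 genotypes and 2 *Xist* classes, and each class holds too few mice for a correlation of its own.

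The 250 bases before the annotated start were read from RefSeq (GRCm38.p6) for 8 of the 9 members, without *Agtr1a*, in 11 windows. Maf proteins bind variants of the Maf recognition element, so 2 motifs were searched on both strands: TGCTGA, the short form, found in 16.1% of 32851 windows of all genes, and TGANTCA, the core of the form that overlaps the AP-1 site, found in 6.75%. The 2 motifs can overlap by the letters TGA. The TATA motif TATAAA, found in 12.4%, was searched as a landmark. The windows of *Enpep*, *Ace* and *Agt* are shown because these members differed with the genotype in at least 1 fit, and that of *Atp6ap2* because it holds a Maf motif while its RNA did not differ past the threshold. Capitals mark TATAAA, or its reverse complement, in the first 3 and TGCTGA in the last.
Enpep (chr3:129332750-129332999, minus strand): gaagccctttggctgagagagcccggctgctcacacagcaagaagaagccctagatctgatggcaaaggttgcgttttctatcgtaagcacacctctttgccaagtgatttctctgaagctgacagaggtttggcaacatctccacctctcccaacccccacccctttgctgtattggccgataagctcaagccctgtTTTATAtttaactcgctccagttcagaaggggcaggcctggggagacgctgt
Ace (chr11:105967698-105967947, plus strand): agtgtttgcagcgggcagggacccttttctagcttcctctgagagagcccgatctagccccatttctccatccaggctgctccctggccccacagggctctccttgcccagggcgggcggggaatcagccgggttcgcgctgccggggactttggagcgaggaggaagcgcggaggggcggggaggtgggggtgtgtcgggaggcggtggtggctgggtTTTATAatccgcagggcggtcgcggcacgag
Agt (chr8:124569707-124569956, minus strand): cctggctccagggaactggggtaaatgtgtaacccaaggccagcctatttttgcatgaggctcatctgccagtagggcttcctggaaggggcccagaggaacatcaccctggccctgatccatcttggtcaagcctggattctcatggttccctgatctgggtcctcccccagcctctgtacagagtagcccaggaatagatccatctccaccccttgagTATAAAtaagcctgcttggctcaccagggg
Atp6ap2 (chrX:12587509-12587758, plus strand): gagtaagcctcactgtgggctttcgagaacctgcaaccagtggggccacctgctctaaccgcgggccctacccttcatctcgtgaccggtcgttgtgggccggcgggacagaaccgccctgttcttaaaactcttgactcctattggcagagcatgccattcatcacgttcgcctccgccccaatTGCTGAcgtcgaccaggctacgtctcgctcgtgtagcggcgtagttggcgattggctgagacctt

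The windows of *Enpep*, *Agt* and the outer start of *Ace* held neither Maf motif, and the match in *Atp6ap2* lay 65 bases before the start. A second, internal start of *Ace* held TGCTGA at 235 bases, and 1 of 3 starts of *Mme* held TGANTCA. In all, 2 of 8 members held TGCTGA and 1 held TGANTCA, whereas 5 of 8 (*Agt*, *Ren1*, *Ace*, *Agtr1b* and *Enpep*) held TATAAA, at 29 to 31 bases before the start in the first 4 and at 52 in *Enpep*. A match is a description of letters and not of binding, and the lack of one says only that these letters are not in this window.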

How the data were processed

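The file headers and labels give featureCounts (2.0.1 in the header, Subread 2.0.2 in the submitters' processing notes), GRCm38 and Ensembl release 102; the study's methods name CLC Genomics Workbench for mapping, and whether it made the alignments behind these counts is not given in the sources used here. The deposited values are whole-number counts per gene made by the authors from directional, rRNA-depleted libraries, with each read counted singly, strand ignored and reads on 2 genes left out. Gene length came from the same table.

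From the counts, edgeR 4.0.16 (R 4.3.3) gave TMM factors (0.857 to 1.11), a filter on low counts (filterByExpr), the quasi-likelihood test of c-MafΔTAM against c-Maf fl/fl mice without covariates, and Benjamini-Hochberg adjustment over all 20149 genes tested, with a threshold of 0.05. The standard error is the log2 fold change over the root of F. Of 200 genes changed in simulated counts of 19751 genes, the test recovered 16.4%, 61.2% and 90.5% at log2 fold changes of 0.5, 1 and 2. Of its 117 calls there 8 were false. The simulated mice held no *Xist* class, so these shares need not hold for the present data. Class by *Xist* (above or below 100 CPM), its second term, its interaction and the fit within controls were chosen after seeing the data. The study's quantile-normalised analysis was not repeated. The members and lists were chosen with earlier results of these data known. Named were all members, every listed pathway gene past the threshold for genotype or class, 8 pathway genes whatever their values, and the 5 genes most like *Ren1* and *Agt*; *Agtrap* and the markers of cells were named after their values were seen. Alternatives used RLE, upper-quartile and quantile scaling, limma 3.58.1, the exact test, DESeq2 1.42.0, other filters, a replicate block, and leaving out each mouse. The labels do not say more of how the mice relate, so p-values measure the spread between these 8 samples. No 2 libraries of 1 genotype agreed within sampling noise. Promoter windows are from RefSeq. A further pathway gene, a ratio with it and a further cell marker are not reported here.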

Additional observations from a re-analysis of the deposited data

Results flagged for a closer look

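Within each genotype of 4 mice, 16 sets of values were examined for a mouse far from the other 3, by the gap to its neighbour over the whole range, and 3 passed the 95% limit of Dixon's test, where chance gives about 1 in 20 sets, or 0.8 here. *Ren1* stood at 28.9 CPM in c-MafΔTAM mouse 1, against 70.2 to 75.6 CPM in the other 3 c-MafΔTAM mice (ratio 0.883). *Mme* stood at 139 CPM in the same mouse, against 228 to 236 CPM (ratio 0.912). That mouse is the only c-MafΔTAM mouse with low *Xist* and also has the highest mitochondrial share, 32.3%, and these cannot be told apart within the genotype. In c-Maf fl/fl mice, where both classes have 2 mice, the low-Xist mice were at 42.3 and 35.1 CPM of *Ren1* and at 123 and 132 CPM of *Mme*, with mitochondrial shares of 18.7% and 25.5% beside 17.1% and 18.7% in the high-Xist controls. *Atp6ap2* stood at 48.6 CPM in c-MafΔTAM mouse 3, against 52.1 to 52.5 CPM (ratio 0.884), a small gap in a gene of small spread.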

How the results depend on the processing

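Of 181 fold changes and ratios under alternatives, 160 kept their direction and side of the threshold. Among these the 2 ratios within high-Xist mice had no test. They were counted as kept because their direction held and they moved by less than the larger SD of the genotypes. The number of members past the threshold, 2 of 8, was 1 with the exact test, 1 at an adjusted p under 0.01, 1 to 2 with each mouse left out, and 3 with quantile scaling, DESeq2, genes of at least 1 count in any mouse, *Xist* as a covariate, high-Xist mice or the class. Among other pathway genes (1 of 13) it was 2 with genes of at least 1 count in any mouse or with *Xist* level as a covariate and 3 with the *Xist* class. Over all genes (436) it was 886 with DESeq2, 1374 with *Xist* as a covariate, 789 within high-Xist mice, 1506 with the class, 180 at 0.01, and 239 to 452 with each mouse left out (256, 239 and 285 without c-MafΔTAM mouse 2, c-MafΔTAM mouse 3 and c-Maf fl/fl mouse 3). Of calls, 27.1% were higher in c-MafΔTAM mice, 36.4% with upper-quartile factors, 40.8% within high-Xist mice, 37.9% with *Xist* as a covariate, 39.9% with the class, 13.95% with the replicate block, and 21.3% to 31.4% with each mouse left out.

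*Agt* kept its sign in 20 of 20 alternatives (0.37 to 0.67) and passed in 7, among them DESeq2 and quantile scaling. *Ace* kept it in 20 and passed in 12, and *Enpep* in 20 and passed in 19. *Ren1* turned to -0.0051 with *Xist* as a covariate and -0.058 with the class, and *Mas1*, at -0.22 to 0.78 with each mouse left out, to -0.22 without c-MafΔTAM mouse 1. With each mouse left out, the log2 ratio of *Enpep* to *Mme* differed by -1.07 to -0.75 and that of *Ren1* to *Agt* by -0.49 to 0.051; within high-Xist mice they differed by -0.63 and -0.55. The first had an exact permutation p of 0.0286 before adjustment without c-Maf fl/fl mouse 2 (-1.07), and the second turned to 0.051 without c-MafΔTAM mouse 1. The causes were not tested.

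The replicate numbers did not pair the mice (correlations of deviations -0.37, 0.15, -0.11 and -0.33). With a replicate block 0 members, 0 other pathway genes and 129 genes in all passed, with *Enpep* at -0.52 (adjusted p = 0.0840) and *Ace* at 0.43 (adjusted p = 0.176). Depth limits *Mas1* (7 to 55 counts per library) and *Agtr1b* (5 counts in all).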
